A study of Mus musculus with 4 samples.

Results

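Retinoic acid is the signal that commits undifferentiated spermatogonia, the mitotic germ cells of the testis, to differentiation. It acts through nuclear receptors of the RAR family, which pair with RXR receptors on DNA, and its response in germ cells includes *Stra8*, a gene needed for meiosis to begin, and *Kit*, the receptor tyrosine kinase that marks differentiating spermatogonia. The transcription factors SOHLH1 and SOHLH2 act in parallel in the same transition, DMRTB1 (also called DMRT6) acts in late differentiating spermatogonia, and *Rhox13* is an X-linked homeobox gene of differentiating germ cells. The 8 genes described here are the receptors *Rara* and *Rarg*, the response genes *Stra8* and *Kit*, and the transcription factor genes *Sohlh1*, *Sohlh2*, *Dmrtb1* and *Rhox13*. They were chosen by symbol from the 30828 genes counted, and all 8 were found once in both matrices.

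The data were droplet 3′ RNA counts from testes of mice at postnatal day 8, after FACS of CD9+/THY1+ cells. Control animals are labelled wild-type and were, by the study's methods, *Cnot3* flox/flox littermates for neonatal deletion, while *Cnot3*-cKO animals were *Cnot3* flox/flox with the *Ddx4*-creER transgene, so that recombination is driven in germ cells. *Cnot3* encodes a subunit of the CCR4-NOT complex, which shortens mRNA poly(A) tails. Pups of both genotypes received 4OHT, the ligand that activates creER, from postnatal day 1, and the labelled last day of injection differs between the 4 samples, being day 1 and day 2 in control and day 3 and day 4 in *Cnot3*-cKO. The study's methods describe a single schedule for all neonatal pups, ending on day 3, so it is uncertain whether dosing differed between the genotypes. The sample titles begin with NS or NOV, and the methods name a NextSeq and a NovaSeq sequencer, so the samples of a genotype may be runs of 1 cell preparation. The samples of a genotype were merged in 1 matrix, so each genotype is 1 library here, no spread between animals could be measured, and no comparison below has a test. Ranges in brackets are 95% intervals that cover counting error only, and those of levels and ratios leave out the spread between barcodes.

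Each value is a number of unique molecular identifiers (UMIs, 1 per captured transcript), given in CPM, that is per 1000000 UMIs of the same barcodes. A germ barcode was one with 10 or more UMIs of *Ddx4* and *Dazl*, both germ cell RNA-binding protein genes, and a somatic barcode had 2 or fewer. There were 1350 germ barcodes among 8341 called barcodes in control and 564 among 9336 in *Cnot3*-cKO, with 57437008 and 26185635 UMIs. Only 58 and 46 barcodes lay between the germ and somatic definitions. The other germ markers *Mael*, *Dnd1*, *Tex101* and *Dppa5a* stood at 33.5 to 297 CPM in control germ barcodes and at 0.487 to 4.40 in somatic ones. The Sertoli markers summed to 132 and 171 CPM in germ barcodes of control and *Cnot3*-cKO, against 2346 and 2790 in somatic barcodes. By the Sertoli markers, at most 8.23% and 7.89% of the UMIs in germ barcodes were free RNA. *Cnot3* itself was at 71.4 and 39.8 CPM in germ barcodes, giving a log2 ratio of -0.84 (-0.94 to -0.75), and at 53.3 and 56.5 in somatic barcodes. Germ barcodes of *Cnot3*-cKO had a median of 46014.5 UMIs and a median mitochondrial share of 9.17%, against 42254.5 UMIs and 10.3% in control. Of the called barcodes, 18 had the same sequence in both libraries.

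Germ barcodes gave 14595 genes at least 50 UMIs over both libraries. Their log2 ratios (*Cnot3*-cKO over control, as everywhere below) had a median of 0.02, with -0.53 at the 5th percentile and 0.73 at the 95th. At least 1.5-fold lower in *Cnot3*-cKO were 3.99% of these genes, and at least 1.5-fold higher were 7.77%. Of the 8 members, *Rarg* and *Stra8* were past 1.5-fold lower and 0 were past 1.5-fold higher. At a fold of 5 to 4, 6 members were lower and 0 higher, against 13.7% and 19.4% of all genes, and at 2-fold 1 member was lower and 0 higher, against 1.02% and 2.45%. The median of the 8 log2 ratios was -0.40.

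To show the members as DNA, the promoter windows of RefSeq (GRCm38.p6, 250 bases before to 50 bases after each start) were searched on both strands for the 6-base core motif that RAR and RXR receptors bind, spelled as AGGTCA or as GGGTCA or as AGTTCA or as GGTTCA. The 14 windows of the 8 genes held a core motif in 5 windows, belonging to *Stra8*, *Rara*, *Rarg* and *Sohlh1*, and 43.7% of all 32851 promoter windows held one. The windows of *Kit*, *Sohlh2*, *Dmrtb1* and *Rhox13* held none of these letters. A direct repeat of core motifs spaced by 1, 2 or 5 bases was in 0 of the 14 windows and in 0.588% of all windows. The E-box CANNTG, the class of word bound by basic helix-loop-helix factors such as SOHLH1 and SOHLH2, was in 13 of the 14 windows and in 72.3% of all windows. The core motifs of *Stra8* and *Rarg*, the members with the lowest ratios, are printed with 12 bases on either side in the direction of the gene, the motif or its reverse complement being in capitals. One lies 194 bases upstream of the *Stra8* start (chr6:34920742-34920771, + strand), another 38 bases upstream (chr6:34920898-34920927, + strand), and that of *Rarg* 225 bases upstream of its distal start (chr15:102257730-102257759, - strand). The annotation used (GENCODE M21) places both *Stra8* stretches in an untranslated exon of a longer *Stra8* transcript and the *Rarg* stretch outside the gene. These letters are a description and not a measured binding site. AGGTCA was also in the window of *Sohlh1*, the member with the highest ratio, and a link between motifs and ratios was not tested.
Stra8 distal motif: gatggggtgaaaAGGTCAtcttgctccttc
Stra8 proximal motif: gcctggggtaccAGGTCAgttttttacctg
Rarg motif: agcccaggacacTGACCTctgccagctctg

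Of the receptors, *Rarg* (chr15:102234938-102257517, - strand, GRCm38) had the lowest ratio of the 8 genes. It was at 17.1 CPM in control germ barcodes (16.1 to 18.3, 985 UMIs) and at 8.40 in *Cnot3*-cKO (7.33 to 9.59, 220 UMIs). The *Cnot3*-cKO level was 2.04-fold lower, giving a log2 ratio of -1.03 (-1.25 to -0.82). *Rara* (chr11:98927818-98974942, + strand) was at 23.6 CPM in control (22.4 to 24.9) and 18.1 in *Cnot3*-cKO (16.5 to 19.8), giving a log2 ratio of -0.39 (-0.54 to -0.24). The difference in *Rarg* depended on which germ barcodes were read. It was -0.63 in barcodes with at most 10% mitochondrial UMIs and -1.31 in those above. The filters stated by the study remove barcodes over 10% mitochondrial UMIs and those of high UMI or gene number. Applied to the barcodes called here, they left 236 control and 65 *Cnot3*-cKO germ barcodes, with 64 and 13 *Rarg* UMIs. The log2 ratio of *Rarg* was then -0.011 (-1.0 to 0.86). *Rara* was at 0.11 (-0.48 to 0.67) in the same barcodes.

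Among the response genes, *Stra8* (chr6:34920163-34939344, + strand) was at 200 CPM in control (196 to 204, 11490 UMIs) and at 125 in *Cnot3*-cKO (121 to 130, 3280 UMIs). The *Cnot3*-cKO level was 1.60-fold lower, giving a log2 ratio of -0.68 (-0.73 to -0.62). It was at -0.68 in barcodes with at most 10% mitochondrial UMIs and at -0.65 in those above, and at -0.57 under the filters of the study. *Kit* (chr5:75574916-75656722, + strand) was at 45.7 CPM in control (44.0 to 47.5) and 35.5 in *Cnot3*-cKO (33.3 to 37.9), giving a log2 ratio of -0.36 (-0.47 to -0.26). *Kit* changed sides with the mitochondrial share of the barcodes. Up to 10% it was at 55.1 in control and 31.8 in *Cnot3*-cKO, giving a log2 ratio of -0.80 (-0.94 to -0.66). Above 10% it was at 37.0 and 43.5, giving a log2 ratio of 0.23 (0.06 to 0.41).

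Of the transcription factor genes, *Sohlh1* (chr2:25842995-25847248, - strand) was at 228 CPM in control (224 to 232) and 253 in *Cnot3*-cKO (247 to 259), giving a log2 ratio of 0.15 (0.11 to 0.19) and the highest of the 8. Its partner gene *Sohlh2* (chr3:55182028-55209957, + strand) was lower in *Cnot3*-cKO, at 38.6 (37.0 to 40.3) and 28.5 (26.5 to 30.6), giving a log2 ratio of -0.44 (-0.56 to -0.32). *Dmrtb1* (chr4:107676290-107684230, - strand) was at 29.7 in control (28.3 to 31.1) and 22.3 in *Cnot3*-cKO (20.6 to 24.2), giving a log2 ratio of -0.41 (-0.55 to -0.27). *Rhox13* (chrX:38121219-38129967, + strand) was at 59.2 (57.2 to 61.2) and 60.0 (57.1 to 63.0), giving a log2 ratio of 0.02 (-0.07 to 0.11) whose interval spans 0. *Dmrtb1* and *Rhox13* followed the mitochondrial share as *Kit* did. Up to 10% their log2 ratios were -0.96 and -0.33, and above 10% they were 0.40 and 0.49. In control, *Dmrtb1* was at 41.6 CPM in barcodes of at most 10% and 18.6 in those above, while in *Cnot3*-cKO it was at 21.3 and 24.5. Over 10% mitochondrial UMIs were 54.6% of control germ barcodes and 36.9% of *Cnot3*-cKO ones, and the part of this difference in the member ratios was not tested.

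**Figure D1:**
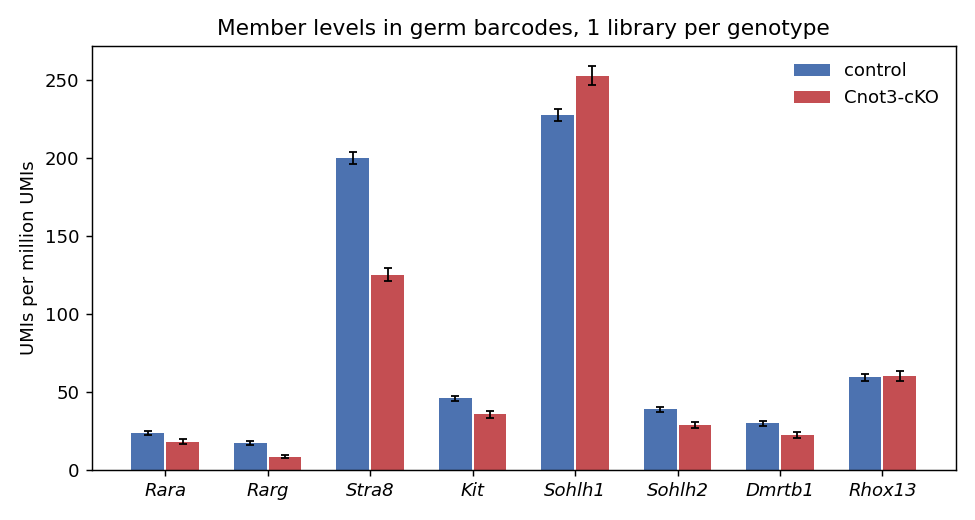
Bars give CPM in germ barcodes for each member in the 1 control library and the 1 *Cnot3*-cKO library, with 95% counting intervals as error bars. *Rarg* is at 17.1 and 8.40 and *Stra8* at 200 and 125, while *Rhox13* is at 59.2 and 60.0.

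The germ barcodes fell into 2 germ-like clusters, formed without the 8 members. Cluster 11, with 855 control and 408 *Cnot3*-cKO germ barcodes, was led by *Egr4*, *Afp*, *Trim71*, *Zbtb16* and *Nefm*. Cluster 12, with 486 and 154, was led by *Crabp1*, *Lmo1* and *Esx1*. In control, 5 members were at higher levels in cluster 12 than in cluster 11. *Kit* was at 105 CPM in cluster 12 and 14.4 in cluster 11, *Dmrtb1* at 70.8 and 7.81, *Rhox13* at 114 and 30.2, *Stra8* at 370 and 113, and *Sohlh2* at 55.04 and 30.3. The receptors and *Sohlh1* were on the other side, *Rarg* at 9.43 in cluster 12 and 21.3 in cluster 11, *Rara* at 19.4 and 25.8, and *Sohlh1* at 215 and 236. In *Cnot3*-cKO, *Rarg* was at 7.51 in cluster 12 and 8.71 in cluster 11, so its distance between the clusters was smaller than in control.

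Within cluster 11 the log2 ratio of *Rarg* was -1.29 (-1.54 to -1.05), and in cluster 12 it was -0.33 (-0.81 to 0.13). *Stra8* was lower in *Cnot3*-cKO in both, at -0.41 (-0.49 to -0.33) and -0.58 (-0.66 to -0.51). *Sohlh2* was likewise lower in both, at -0.35 and -0.36, and *Sohlh1* higher in both, at 0.09 and 0.26. *Kit* was higher in *Cnot3*-cKO within cluster 11, at 14.4 in control and 18.04 in *Cnot3*-cKO, giving a log2 ratio of 0.32 (0.12 to 0.52). Within cluster 12 it was lower, at 105 and 88.3, giving a log2 ratio of -0.25 (-0.39 to -0.12). *Dmrtb1* was at -0.55 (-0.88 to -0.22) in cluster 11 and at 0.05 (-0.10 to 0.21) in cluster 12, where 1390 of its 1704 control UMIs lay. *Rhox13* was at 0.15 and 0.29. At least 1.5-fold lower were 5.79% of genes in cluster 11, where *Rarg* was the 1 such member, and 2.80% in cluster 12, where 0 members were. At least 1.5-fold higher were 8.74% and 4.82%, and 0 members in either cluster. In cluster 11 the 8 stem genes described below summed to 210 CPM for control and 440 for *Cnot3*-cKO, and *Neurog3*, a marker of progenitor spermatogonia, was at 18.4 and 3.06, so these genes differed between the libraries within 1 cluster.

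**Figure D2:**
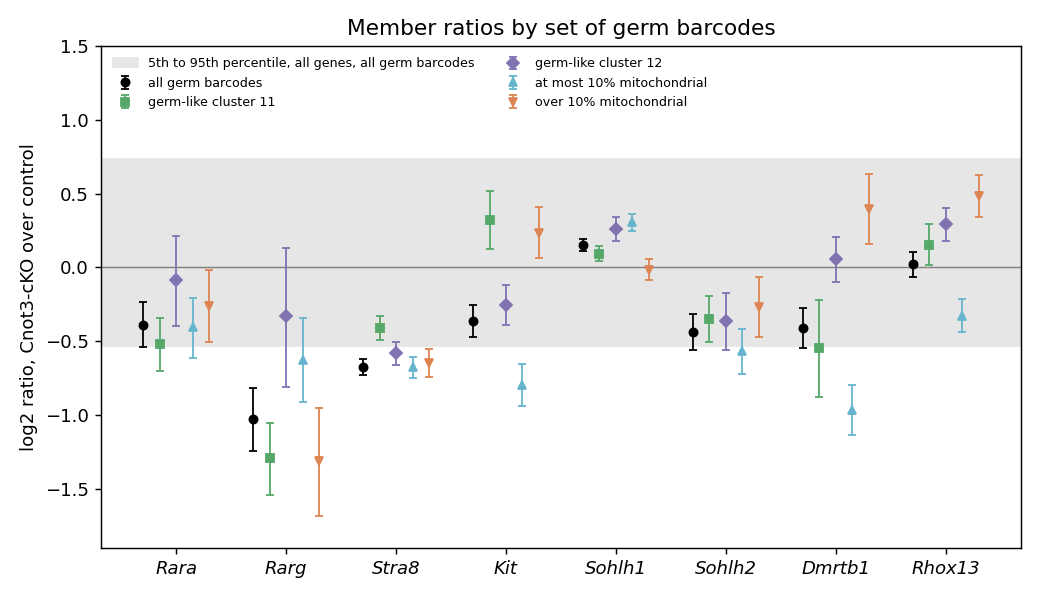
Points give each member's log2 ratio (*Cnot3*-cKO against control) in all germ barcodes, in germ-like clusters 11 and 12, and in germ barcodes with at most and over 10% mitochondrial UMIs, with 95% counting intervals, and the grey band holds the 5th to 95th percentile of all genes (-0.53 to 0.73). *Stra8*, *Sohlh2* and *Rarg* lie below 0 in every set, *Rarg* with an interval that spans 0 in cluster 12 (-0.81 to 0.13). *Kit* is at 0.32 in cluster 11 and -0.25 in cluster 12, and *Dmrtb1* at -0.96 and 0.40 on either side of 10%.

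To compare the shares of barcodes in which a gene was seen, each germ barcode was thinned to 10000 UMIs, which left out 20 control and 5 *Cnot3*-cKO barcodes. *Stra8* was seen in 50.8% of 1330 control barcodes (48.1 to 53.5) and 37.4% of 559 *Cnot3*-cKO barcodes (33.4 to 41.5). *Rarg* was seen in 14.1% (12.3 to 16.1) and 7.69% (5.62 to 10.2). *Sohlh2* was seen in 31.9% and 23.8%, *Kit* in 28.9% and 24.3%, *Dmrtb1* in 20.5% and 15.9%, and *Rara* in 19.3% and 15.4%. *Sohlh1* was seen in 80.0% and 82.6% and *Rhox13* in 36.9% and 39.0%. Without thinning, *Stra8* was seen in 74.9% and 59.2% and *Rarg* in 40.8% and 28.5% of germ barcodes. In Sertoli-like somatic barcodes thinned alike, *Stra8* was seen in 1.30% and 0.488% and *Rarg* in 0.191% and 0.154%, which is the level free RNA can give. Before thinning, the median somatic barcode held 13711 UMIs in control and 12937 in *Cnot3*-cKO. In barcodes with a *Stra8* UMI, the mean number was 4.01 in control and 3.37 in *Cnot3*-cKO, so both the share of barcodes and the number per positive barcode were lower.

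Pairs of members were compared by the share of barcodes in which both were seen, over the product of both single shares, where 1 means no relation. The ratio cannot exceed 1 over the larger single share. Its size therefore cannot be compared between libraries or pairs whose shares differ. *Kit* and *Dmrtb1* were seen together 1.89 times as often as the product in control and 2.17 times in *Cnot3*-cKO. *Dmrtb1* and *Rhox13* gave 1.84 and 1.96, and *Kit* and *Rhox13* 1.45 and 1.40. *Stra8* and *Kit* were seen together in 21.8% of control (19.6 to 24.1) and 13.8% of *Cnot3*-cKO barcodes (11.03 to 16.9), 1.48 and 1.51 times the product. These were the highest of the 28 pairs in control, and in *Cnot3*-cKO *Kit* with *Sohlh2* (1.45) also stood above *Kit* with *Rhox13*. In control, *Kit* was seen in 42.9% of barcodes with *Stra8* and 14.5% of those without. In *Cnot3*-cKO these shares were 36.8% and 16.9%, so they lay closer together than in control. *Sohlh1* gave 0.94 to 1.10 with each of the other 7 members in control, and *Rara* gave 0.86 to 1.05. Since *Sohlh1* was seen in 80.0% of control barcodes, its ratios are held near 1 and do not show a lack of relation. In control, *Rarg* was seen in 15.6% of barcodes with *Sohlh1* and 8.27% of those without. For *Rhox13* these shares were 35.2% and 43.6%. *Rarg* was the member seen least often with *Kit* in control, at 0.62 (34 barcodes), and was at 1.15 in *Cnot3*-cKO, which rests on 12 barcodes. These ratios share libraries, depth and cell stage, and they change with depth, that of *Dmrtb1* and *Rhox13* in control from 2.28 at the lowest thinning depth tried to 1.28 at full depth.

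**Figure D3:**
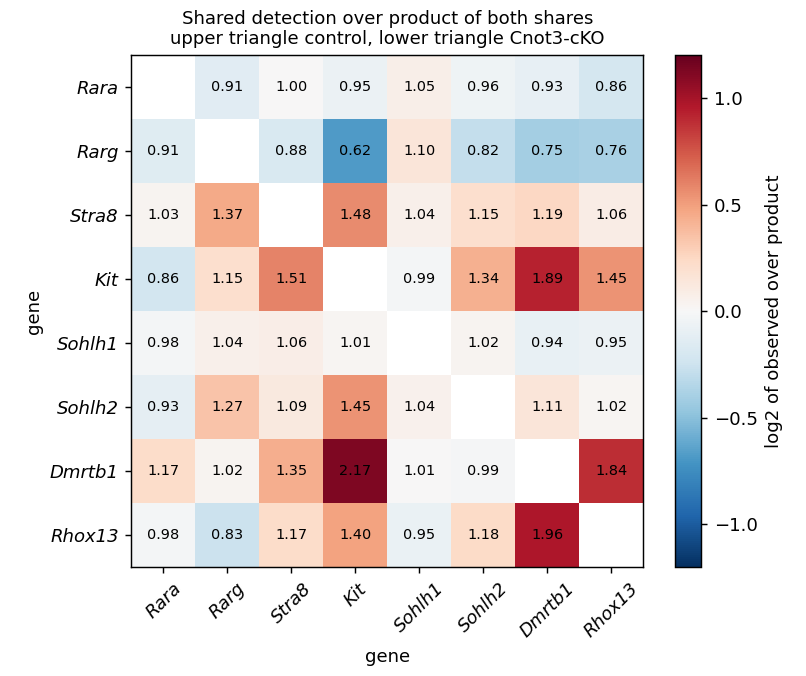
Each cell gives the share of thinned germ barcodes in which both genes were seen over the product of their single shares, for control above the diagonal and *Cnot3*-cKO below it, with the colour on a log2 scale. The pairs among *Kit*, *Dmrtb1* and *Rhox13* are at 1.45 to 1.89 in control and 1.40 to 2.17 in *Cnot3*-cKO, and *Rarg* with *Kit* is at 0.62 and 1.15.

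The members were also followed along *Stra8* itself. In control barcodes with 0 *Stra8* UMIs after thinning, *Kit* was at 23.9 CPM, and with 1 to 2, 3 to 9 and 10 or more it was at 52.3, 75.7 and 100.4. *Sohlh2* took the same order, at 29.97, 40.1, 49.1 and 66.4. *Dmrtb1* was highest in barcodes with 1 to 2 *Stra8* UMIs, at 43.9, and lowest in those with 10 or more, at 6.43. *Rarg* was at 18.8 without *Stra8* and 11.1 with 10 or more, and *Rara* stayed between 22.9 and 24.8. In *Cnot3*-cKO, 62.6% of barcodes had 0 *Stra8* UMIs, against 49.2% in control, and 12 barcodes had 10 or more, against 86. Over the same 4 ranges *Kit* was at 24.1, 53.8, 53.8 and 72.8 in *Cnot3*-cKO. It was thus near the control level in the first and second range and below it at 3 to 9 and at 10 or more, the last on 12 barcodes.

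Germ barcodes were next split by a stem list that holds no member (*Gfra1*, *Ret*, *Lhx1*, *Etv5*, *Id4*, *Eomes*, *Nefm* and *Bcl6b*, genes of the GDNF receptor, its targets and the primitive stem state). After thinning to 10000 UMIs, 0 stem UMIs were counted in 54.4% of control and 37.0% of *Cnot3*-cKO barcodes, and 3 or more in 19.1% and 39.2%. Barcodes with 3 or more had little *Kit*, with 6.57 CPM in control against 10.4 in *Cnot3*-cKO, and little *Dmrtb1*, at 4.73 and 2.90. *Stra8* at 0 stem UMIs was at 245 in control and 214 in *Cnot3*-cKO, giving a log2 ratio of -0.20 (-0.27 to -0.12). At 1 to 2 it was at 209 and 120.5, giving a log2 ratio of -0.80 (-0.91 to -0.68), and at 3 or more it was at 49.9 and 48.1, giving a log2 ratio of -0.05 (-0.23 to 0.13). The ratio of *Stra8* over all germ barcodes (-0.68) was thus lower than in the first and the last range. This order depended on the depth at which stem UMIs were counted, since with thinning to 20000 UMIs the 3 ratios of *Stra8* were -0.46, -0.24 and -0.32.

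*Rarg* was lower in *Cnot3*-cKO in each stem range, with log2 ratios of -0.64, -1.02 and -0.93. Its control level was highest at 1 to 2 stem UMIs, at 23.9, where *Cnot3*-cKO was at 11.8. *Sohlh1* was higher in *Cnot3*-cKO in each range, at 0.21, 0.17 and 0.35, and *Rara* lower in each, at -0.26, -0.49 and -0.32. *Kit* was at 0.07 (-0.05 to 0.20), -0.15 (-0.44 to 0.14) and 0.67 (0.22 to 1.13), the last on 68 control and 108 *Cnot3*-cKO UMIs. Of barcodes without stem UMIs, those of *Cnot3*-cKO held more *Rhox13*, at 83.4 in control and 108 in *Cnot3*-cKO, giving a log2 ratio of 0.38 (0.27 to 0.48). Just inside and outside the last range lay 74 control and 35 *Cnot3*-cKO barcodes at 3 UMIs and 102 and 54 at 2. With thinning to 20000 UMIs in place of 10000, *Dmrtb1* at 0 stem UMIs changed from 0.17 to -0.071.

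**Figure D4:**
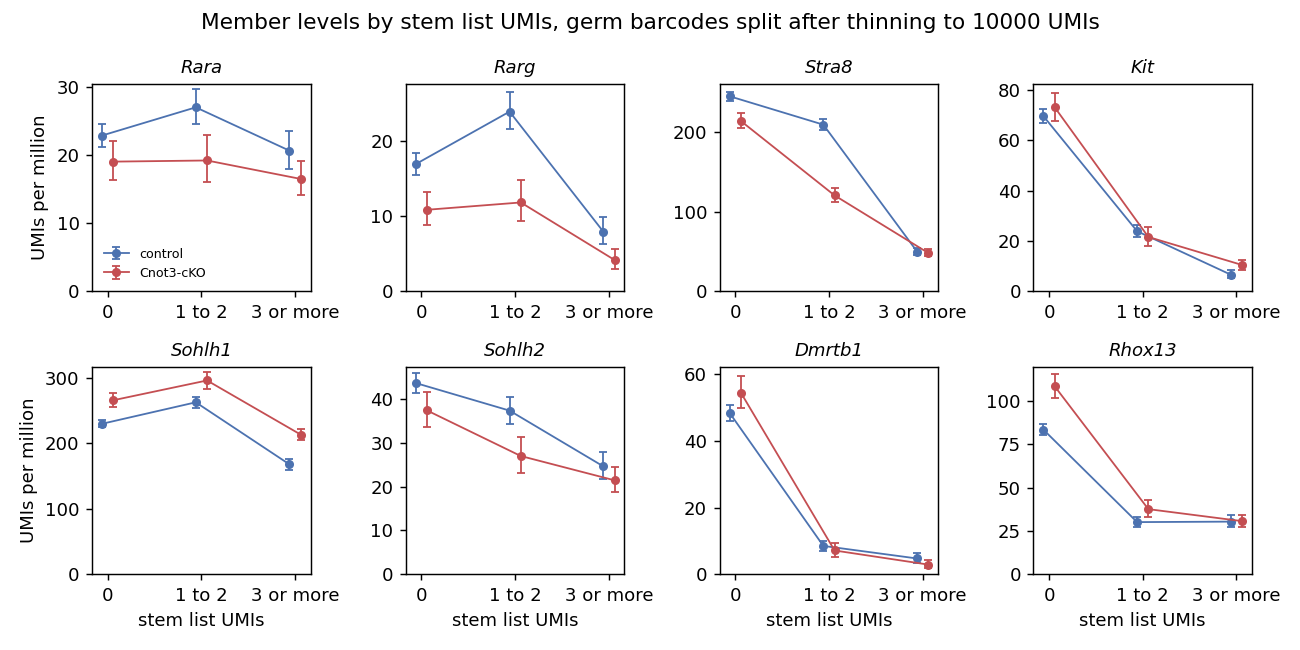
Each panel gives CPM of 1 member in germ barcodes with 0, 1 to 2 and 3 or more stem list UMIs, in control (blue) and *Cnot3*-cKO (red), with 95% counting intervals. *Rarg* and *Rara* lie lower and *Sohlh1* higher in *Cnot3*-cKO in each range, and *Stra8* is furthest apart at 1 to 2 UMIs, at 209 and 120.5.

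In somatic barcodes (6933 in control and 8726 in *Cnot3*-cKO), 3 of the 8 members were counted above what free germ cell RNA gives. *Rara* was higher there than in germ barcodes, with 50.7 CPM in the control library and 58.4 in that of *Cnot3*-cKO, 2.14-fold and 3.23-fold the germ level of the same library. It was highest in Sertoli-like clusters, at 78.0 (75.3 to 80.7) and 84.8 (82.5 to 87.2), and was at 32.7 and 33.2 in interstitial-like ones. The 5 Sertoli-like clusters ranged from 62.7 to 82.6 in control and from 70.2 to 92.9 in *Cnot3*-cKO. The log2 ratio of *Rara* was 0.12 (0.06 to 0.18) in Sertoli-like and 0.02 (-0.07 to 0.11) in interstitial-like barcodes. Over all somatic barcodes it was 0.20 (0.15 to 0.26), while Sertoli-like barcodes were 2879 of 6933 in control and 4361 of 8726 in *Cnot3*-cKO. In the same barcodes 2.16% of genes were at least 1.5-fold higher and 2.60% at least 1.5-fold lower.

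*Rarg* had another pattern. In Sertoli-like barcodes it was at 0.145 and 0.117 CPM, from 6 and 7 UMIs in all. In interstitial-like barcodes it was at 7.29 and 8.81, giving a log2 ratio of 0.27 (0.09 to 0.46). It was highest among their larger clusters in cluster 6, at 15.01 (13.0 to 17.3) in control and 20.4 (17.7 to 23.3) in *Cnot3*-cKO. *Rara* and *Rarg* thus differed in where they were counted, *Rara* in every class and *Rarg* in germ, interstitial-like, endothelial-like and macrophage-like barcodes. For *Rarg* the endothelial-like class rests on 6 and 7 UMIs from 36 and 42 barcodes. The macrophage-like class rests on 8 and 7 UMIs from 51 and 62 barcodes. *Kit* was concentrated in cluster 7 of the interstitial-like barcodes, at 20.7 (18.6 to 23.0) in control and 26.3 (24.0 to 28.8) in *Cnot3*-cKO, which held 351 of 474 and 478 of 632 interstitial-like *Kit* UMIs. Over all interstitial-like barcodes the log2 ratio of *Kit* was 0.41 (0.24 to 0.59). In endothelial-like barcodes *Kit* was at 35.5 and 21.5, on 20 and 12 UMIs from 36 and 42 barcodes. In Sertoli-like barcodes it was at 0.893 and 0.768.

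*Stra8*, *Sohlh1*, *Sohlh2*, *Dmrtb1* and *Rhox13* were at 0.335 to 1.501 CPM in control somatic barcodes and 0.178 to 1.08 in *Cnot3*-cKO. These levels were 1.81% to 4.34% of those in empty barcodes (100 UMIs or fewer) of the same library, while the germ markers *Mael*, *Tex101* and *Dppa5a*, which set neither barcode class, were at 1.98% to 5.45% and *Dnd1*, the other such marker, at 11.9% and 13.8%. No somatic expression was read from the 5 members. Against the somatic level the germ signal of *Stra8* was 162-fold higher in control and 309-fold higher in *Cnot3*-cKO, and that of *Sohlh2* 72.2-fold and 92.5-fold. In empty barcodes *Stra8* was at 46.5 and 20.9 and *Rhox13* at 26.8 and 13.4, alongside a smaller share of germ barcodes in *Cnot3*-cKO (6.04% against 16.2%).

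**Figure D5:**
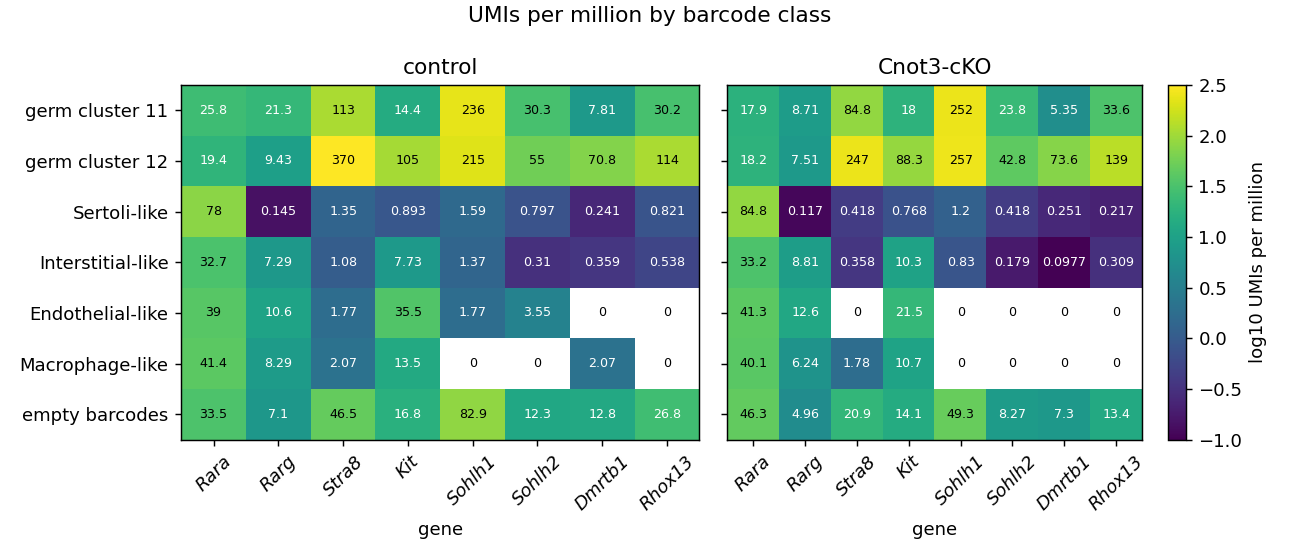
Colours and numbers give CPM of each member by barcode class in control and *Cnot3*-cKO, on a log10 colour scale, with white cells at 0 UMIs. *Rara* is highest in Sertoli-like barcodes at 78.0 and 84.8, and *Kit*, *Dmrtb1* and *Rhox13* are highest among germ barcodes in cluster 12.

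The other genes of the pathway were read from lists. Over all genes 3.99% were at least 1.5-fold lower and 7.77% at least 1.5-fold higher, the shares to set beside each list count. Of 10 RA receptors and partners counted, 1 was at least 1.5-fold lower in *Cnot3*-cKO (*Rarg*) and 0 were higher, with a median log2 ratio of -0.19 against 0.02 over all genes. *Rxra*, an RXR partner receptor named after its value was seen, was at 19.7 and 14.6 CPM, giving a log2 ratio of -0.43 (-0.60 to -0.26), and *Rxrb* at 25.5 and 27.3, giving a log2 ratio of 0.10. The co-repressor gene *Ncor1* was at -0.08, and the co-activator gene *Ncoa3* at 0.24. *Rarb* had 24 and 16 UMIs, too few to be read. Of 13 retinoid metabolism genes, 1 was lower, *Cyp26a1*, which encodes an enzyme that degrades retinoic acid and is itself a retinoic acid response gene. It was at 3.12 and 1.72 CPM, giving a log2 ratio of -0.86 (-1.36 to -0.38) on 179 and 45 UMIs. *Crabp1*, the cytoplasmic retinoic acid binding protein, was at -0.19, *Rbp4* at 0.47 and *Aldh1a1* at 0.24.

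The differentiation list held 16 genes, 6 of them members, and mixed genes of differentiating cells with genes of undifferentiated and progenitor cells. Of the 16, 4 were at least 1.5-fold lower and 0 higher, against 3.99% and 7.77% of all genes, with a median of -0.36. The 4 lower genes were *Stra8*, *Lin28a* (-0.66), *Nanos3* (-0.67) and *Rhox10* (-0.62). LIN28A and NANOS3 are RNA-binding proteins of undifferentiated and progenitor germ cells, and *Rhox10* is a homeobox gene needed for stem cell establishment. *Ccnd2*, a cyclin gene, was at 0.41, *Dmrt1* at -0.13, *Dnmt3b* at -0.35 and *Sox3* at -0.50. Of 10 meiotic genes, 0 were at least 1.5-fold lower and 3 at least 1.5-fold higher, against 3.99% and 7.77% of all genes. The 3 were *Stag3* (0.59), *Smc1b* (0.77) and *Hormad1* (0.87), which encode cohesin subunits and a chromosome axis protein. The median of this list was 0.39. *Dmc1*, a recombinase gene, was at 0.20, and the synaptonemal complex genes *Sycp1* at 0.38, *Sycp2* at 0.52 and *Sycp3* at 0.02. *Meioc*, the meiotic marker of the study and named here after its value was seen, was the only gene of this list below 0. Its log2 ratio was -0.22 (-0.38 to -0.07).

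The genes whose levels per barcode were most like each member were ranked by Pearson's r over 1350 control germ barcodes, among 8800 genes with at least 500 UMIs. *Crabp1* was most like *Kit* (r = 0.66, and 0.51 over 564 *Cnot3*-cKO barcodes), followed by *Dynll2* (0.57 and 0.39) and *Pcsk1n* (0.57 and 0.43). *Rps27l* was most like *Dmrtb1* (0.69 and 0.64), with *Rhox13* second (0.67 and 0.55) and then *Baz1a* (0.65 and 0.61). *Esx1*, another X-linked homeobox gene, was most like *Rhox13* (0.67 and 0.68), with *Atp5f1* after *Dmrtb1* (0.65 and 0.54). Among the genes most like *Stra8* were *Kit* (0.43 and 0.31) and *Gmnn* (0.43 and 0.30). For *Sohlh1* they were *Uchl1* (0.49 and 0.45), *Fkbp6* (0.45 and 0.42) and *Eno1* (0.44 and 0.45). *Rarg* was most like *Upp1* (0.44 and 0.20), *Cmip* (0.39 and 0.14) and *Six4* (0.37 and 0.13). These values were lower in *Cnot3*-cKO for all 3 genes, as were those of the genes named for *Stra8*, *Kit*, *Dmrtb1* and *Sohlh2*. The genes were picked by their r in control, so a lower r in the other library is expected from that choice alone. No difference between genotypes was read from it, and the part of the lower *Rarg* level in *Cnot3*-cKO was not tested. *Sohlh2* reached 0.34 with *Anp32b*, 0.32 with *Crabp1* and 0.32 with *Dnmt3b*, and *Rara* at most 0.25, with *Mgat4b*, *Gatm* and *Kctd14*, too weak to be read as a finding. These r values describe barcodes that share a library and differ in depth, and for the gene ranked highest for each member other than *Stra8* the control r was lower after thinning to 10000 UMIs, between 0.13 (*Rara* with *Mgat4b*) and 0.46 (*Dmrtb1* with *Rps27l*).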

How the data were processed

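Testis cells of 4 labelled samples (2 control, 2 *Cnot3*-cKO, which may be 2 sequencing runs of each genotype) were profiled on a droplet 3′ platform. The authors deposited raw counts of UMIs for every gene in every barcode, for which the submitters' processing notes name Cell Ranger 3.0.1 and mm10. Both matrices list all 6794880 barcodes of the kit, so cells had not been called. Each matrix merges both samples of a genotype, which could not be separated, and groups were taken from the labelled genotype. The 8 genes and all lists were chosen with earlier results of these data known.

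Barcodes were called when they reached 7976.8 UMIs (control) or 7664.4 UMIs (*Cnot3*-cKO), 0.1 of the UMIs at percentile 99 of the 3000 deepest barcodes. The called barcodes held 89.7% and 89.0% of 181550221 and 168770743 UMIs. Germ and somatic barcodes were set by the UMIs of *Ddx4* and *Dazl*. Clusters came from scanpy 1.11.5 (2500 variable genes without members or mitochondrial genes, 30 principal components, 15 neighbours, Leiden resolution 0.5). Each was named by the marker list with the highest mean log2 level over the median cluster, among lists with at least 3 raised markers. A cluster whose leading genes held more markers of another kind stayed unnamed. This scoring was chosen after the clusters were seen. Doublets were called with Scrublet, 486 in control and 459 in *Cnot3*-cKO, and were kept except in 1 alternative. UMIs were summed over barcodes, with exact Poisson intervals for levels, exact conditional intervals for log2 ratios and Clopper-Pearson intervals for shares, at 95%. With 1 library a genotype no test was made, and a gene with at least 50 UMIs was called past a fold of 1.5. Scripts were tested on simulated data. Named were the members, list genes past the fold, up to 4 others of each list by UMIs, and for each member the 3 genes with the highest r of at least 0.2. Positions are from GENCODE M21 (GRCm38), and promoter sequences from RefSeq (GRCm38.p6). The filters stated by the study were run as an alternative on the barcodes called here. They removed 82.5% of control and 88.5% of *Cnot3*-cKO germ barcodes, and kept 5615 and 6034 barcodes of all kinds. The study gives fewer cells for each genotype, so its own set of cells was not reproduced. There were 32 alternative settings listed at the start, and 6 more were added after the data were seen. A few genes that the naming rule selects are not reported here.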

Additional observations from a re-analysis of the deposited data

Results flagged for a closer look

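*Kit* lay on opposite sides of 0 in the 2 germ-like clusters, with a log2 ratio of 0.32 in cluster 11 and -0.25 in cluster 12, and the difference between clusters was not tested. *Rara* was lower in *Cnot3*-cKO in germ barcodes, at -0.39, and higher in somatic barcodes, at 0.20, a difference that was not tested either. Within somatic classes its ratio was 0.12 in Sertoli-like and 0.02 in interstitial-like barcodes, and *Cnot3*-cKO held the larger share of Sertoli-like barcodes. *Sohlh1* was at 0.15 in germ barcodes and -0.48 in somatic barcodes, where its level of 1.501 and 1.08 CPM was 1.81% and 2.18% of that in empty barcodes, and this difference was not tested.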

How the results depend on the processing

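Each member's germ ratio was recomputed under 22 other settings, and 150 of 176 values moved by less than the counting interval. Most of the others came with the mitochondrial share or the depth of the barcodes. With at most 10% mitochondrial UMIs the log2 ratios were -0.80 for *Kit*, -0.63 for *Rarg*, 0.31 for *Sohlh1*, -0.57 for *Sohlh2*, -0.96 for *Dmrtb1* and -0.33 for *Rhox13*. Over 10% (added after the data were seen) they were 0.23 for *Kit*, -1.31 for *Rarg*, -0.016 for *Sohlh1*, -0.27 for *Sohlh2*, 0.40 for *Dmrtb1* and 0.49 for *Rhox13*, so that *Kit*, *Sohlh1* and *Dmrtb1* changed sign here, and *Rhox13*, at 0.02 in all germ barcodes, lay on opposite sides of 0 up to and over 10%. The filters of the study gave -0.57 for *Stra8*, -0.52 for *Kit*, 0.11 for *Rara*, which changed sign, -0.011 for *Rarg* and 0.34 for *Sohlh1*. Barcodes of 20000 to 60000 UMIs gave 0.074 for *Sohlh1*, -0.24 for *Dmrtb1* and 0.14 for *Rhox13*. Barcodes under 40000 UMIs (added) gave -0.88 for *Stra8*, 0.10 for *Sohlh1*, -0.66 for *Sohlh2*, -0.19 for *Dmrtb1* and 0.19 for *Rhox13*. Germ barcodes set by *Ddx4* alone (added) gave -0.55 for *Dmrtb1*. *Stra8* and *Kit* in control were seen together 1.255 times the product at 20000 UMIs, 1.19 times at full depth and 1.75 times when 2 UMIs were asked for. At 2 UMIs *Kit* and *Rarg* were seen together in 0 *Cnot3*-cKO barcodes, a ratio of 0.0 whose interval reaches 11.9. Split after thinning to 20000 UMIs, *Dmrtb1* without stem UMIs was at -0.071. At a fold of 5 to 4 in place of 1.5, 6 members and 9 genes of the differentiation list were lower. So were 4 RA receptors and partners and 2 retinoid metabolism genes, while 7 meiotic genes were higher, with 13.7% of all genes lower and 19.4% higher. At a fold of 2 these counts were 1, 0, 1, 0 and 0, with 1.02% of all genes lower and 2.45% higher. The causes were not tested. The median of all genes stayed between -0.01 and 0.03 in these settings, so no scaling moved it by 0.1. No paired analysis was possible because each matrix merges both samples of a genotype. For the same reason no sample could be left out. The intervals of levels and ratios cover counting error only and leave out the spread between barcodes. The 10% of germ barcodes with most *Stra8* held 55.1% of its UMIs in control and 60.3% in *Cnot3*-cKO, so the intervals of such a gene are too narrow.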
